A study of Homo sapiens with 10 samples.

Results

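Protocadherins are cadherin-related adhesion proteins of the cell surface, and 29 of the 18569 probe sets on the arrays, which name 17492 genes, carried a gene symbol that starts with PCDH. The members were taken by symbol alone, and each was a gene of its own. They comprised all 16 genes of the beta cluster (PCDHB1 to PCDHB16) and 13 non-clustered genes. No probe set carried a PCDHA or PCDHG symbol in the annotation used, so the alpha and gamma clusters were not analysed here and their RNA could not be compared with that of the beta cluster. No measured value entered the choice of members, but the family was picked with earlier results of the same doxycycline and control arrays known. Counts over the family are therefore descriptions, set beside the share over all probe sets, and nothing is read from them about the family as such.

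RNA came from A375, an established human melanoma line, and was measured on Clariom S arrays, 1 array per sample. The control group was A375 grown without doxycycline and the other group was A375 plated with doxycycline at 2 µg/ml, both frozen on day 4, with 5 arrays per group. The series title names Omomyc, a MYC-derived protein that interferes with MYC at its target genes, though no label tells which construct was used, what promoter drove it or whether the line is 1 clone. No array was labelled as cells given doxycycline but lacking Omomyc, so an effect of doxycycline itself cannot be told apart from one of Omomyc. The arrays are labelled biological replicas and nothing says that they came from separate cultures, so the p-values cover only the array-to-array spread within a group, part of which may be technical.

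The clustered protocadherin genes lie in tandem on the long arm of chromosome 5, in the order alpha, beta, gamma. Each PCDHB gene is a single large coding exon with a promoter of its own, whereas alpha and gamma genes splice their first exon to shared constant exons. In neurons each cell switches on its own subset of these promoters, a choice that involves CTCF, cohesin and DNA methylation, and the proteins bind copies of themselves on neighbouring membranes, which lets a neuron tell its own branches from those of others. Most clustered promoters hold a short conserved element with the core CGCT, and PCDHB1 is known as one of the few that lack it. The non-clustered genes are scattered over several chromosomes, include the delta-1 and delta-2 classes, and act in cell adhesion, cell sorting and signalling to actin. In tumours, protocadherin genes are often silenced by DNA methylation.

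The promoters of the PCDHB genes are shown first because they are what these genes share outside the coding exon. RefSeq windows of GRCh38.p14, which run from 250 bases before to 50 bases after a gene's annotated start, were at hand for 25 of the 29 members, 14 of them PCDHB genes. PCDHB6, PCDHB11, PCDH10 and PCDH20 had no window. The 9-base string found in the largest number of PCDHB windows, a choice made from the sequences alone, was GGTGGCGCT, which ends in the CGCT core. It was present in 13 of the 14 windows, always on the gene's strand, and began 2 to 84 bases before the annotated start. On either strand it occurred in 0.619% of the 27305 genes with a window, in 0 of 11 non-clustered members, in 0 of 13 PCDHA genes and in 0 of 20 PCDHG genes. The core CGCT alone is common, and 71.9% of all genes had it on either strand, as did all 14 PCDHB windows, PCDHB1 included, and 10 of the 11 non-clustered ones. A string match is a description of these letters and not evidence of a bound factor.

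Nine-base matches in capitals, with the bases around them, are given for the 4 PCDHB genes with a match whose RNA signal differed most between the groups and the 4 whose signal differed least among those called, all on the plus strand of chromosome 5. They are printed to show how alike the element is across genes with unlike changes.
PCDHB14 (chr5:141223263-141223292): tggagacacatGGTGGCGCTacaggataag
PCDHB8 (chr5:141177777-141177806): tgaggacccgtGGTGGCGCTgcaggataag
PCDHB13 (chr5:141213865-141213894): tgaggacgcgtGGTGGCGCTgcaggataag
PCDHB10 (chr5:141192299-141192328): ggaggccacacGGTGGCGCTgcaggctaaa
PCDHB12 (chr5:141208643-141208672): tggagacgcgtGGTGGCGCTgcaggataat
PCDHB7 (chr5:141172566-141172595): acaaaacgcaaGGTGGCGCTgctggctaaa
PCDHB3 (chr5:141100393-141100422): agcgaacgcatGGTGGCGCTgttgactaag
PCDHB2 (chr5:141094544-141094573): aagagacgcggGGTGGCGCTgcagccttag

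Over the 13 matched stretches, 14 of the 30 positions held the same base in every gene. The 9 positions of the string were among these by the choice of stretches, so only the rest are likeness beyond the string. The window of PCDHB1 lacked the string. Its closest stretch, with the compared bases in capitals, differed by 1 substitution, C6T, counted from 1 at the first base of the string, and it broke the CGCT core there. The window of PCDHB1 held CGCT elsewhere on the gene's strand, 105 and 84 bases before the start, outside the 9-base string.
PCDHB1 (chr5:141051337-141051366): ggctagcctttGGTGGTGCTgcagttagag

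For context, the 250 bases before the annotated start of PCDHB14, the PCDHB gene with the highest fold change, are given with the string in capitals. It begins 69 bases before the start.
PCDHB14 (chr5:141223093-141223342, plus strand): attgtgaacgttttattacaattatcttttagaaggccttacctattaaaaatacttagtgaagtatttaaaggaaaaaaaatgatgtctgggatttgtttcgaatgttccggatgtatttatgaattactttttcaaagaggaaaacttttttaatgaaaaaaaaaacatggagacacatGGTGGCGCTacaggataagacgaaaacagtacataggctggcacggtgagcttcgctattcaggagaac

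The E-box CACGTG, the string that MYC and MAX dimers are known to prefer, was looked for in the same windows and reads the same on both strands. It was in 0 of the 14 PCDHB windows and 0 of the 11 non-clustered ones, against 8.77% of all genes with a window. Of the clusters not measured here, 3 of 13 PCDHA genes (23.1%) and 0 of 20 PCDHG genes had it. With so few windows these counts say only where the letters are present, and nothing about binding.

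Array-wide facts that bear on the members are few. Any pair of arrays from the same group correlated at 0.990 or above over the probe sets, and pairs from different groups at 0.976 or below. Each array was thus closer to those of its own group, which does not show that all arrays are alike in quality. Leaving out doxycycline array 1 gave 7237 called probe sets, against 7078 with all arrays. Values are log2 signals after RMA, which makes arrays comparable but gives no true zero. As a rough floor, 95% of the 347 olfactory receptor probe sets, genes with little RNA in most tissues, had a mean signal under 3.10. Of the melanoma markers SOX10, MITF and S100B lay above this floor, while PMEL, MLANA, TYR and TYRP1, all of pigment production, did not.

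Doxycycline-treated cells had higher signal for most of the PCDHB genes. Of the 16 PCDHB probe sets 14 rose and none fell, by 1.23-fold for PCDHB2 to 2.40-fold for PCDHB14, and PCDHB1 and PCDHB6 did not pass. A probe set is said to rise or fall when limma's adjusted p over all 18569 probe sets was under 0.05. By this rule 38.1% of all probe sets changed, 20.9% higher with doxycycline and 17.2% lower. Among probe sets with a mean above the floor these shares were 26.7% and 22.9%, and 15 of the 16 PCDHB genes were above it. The median log2 fold change (doxycycline minus control) was 0.70 over the PCDHB genes and 0.04 over all probe sets. In 10 of the 16 every doxycycline array lay above every control array, as it did for 14.9% of all probe sets. RNA of a whole culture was measured, so more cells with the RNA and more RNA per cell cannot be told apart. PCDHB genes share long stretches of sequence and a probe set may take signal from a neighbour, so the 14 genes are not 14 independent observations.

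**Figure D1:**
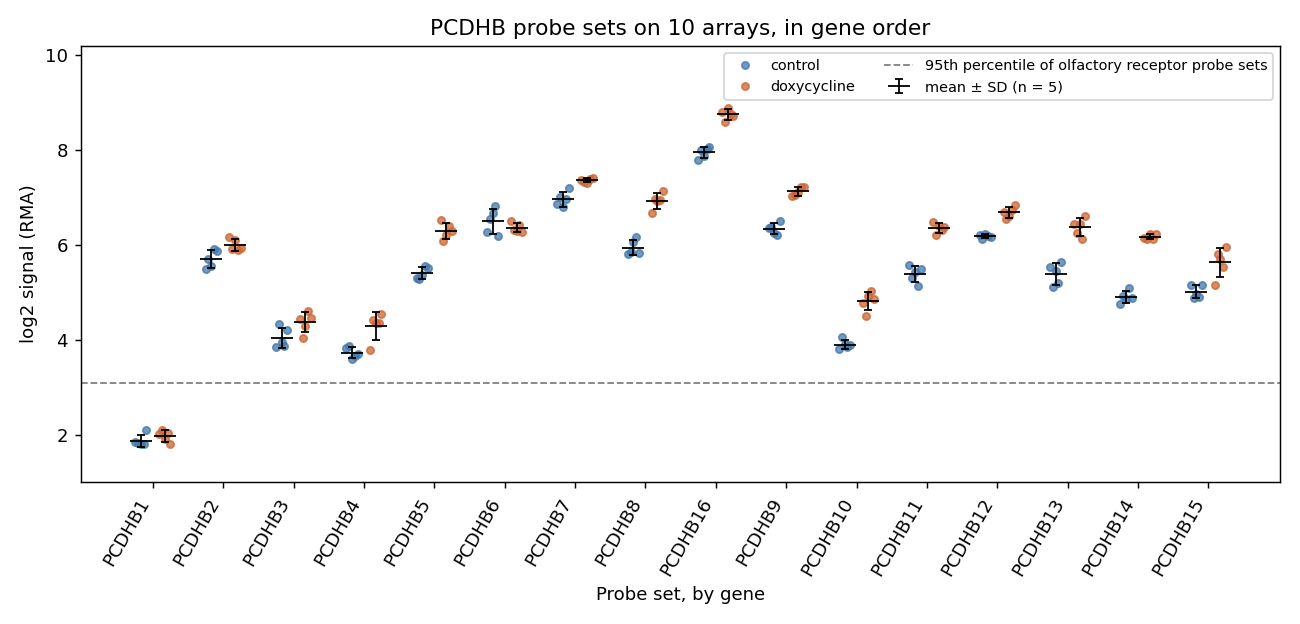
Log2 signal (RMA, vertical axis) of the 16 PCDHB probe sets in gene order on 5 control (blue) and 5 doxycycline (orange) arrays. Points are arrays, black bars the mean ± SD, and the dashed line the 95th percentile of olfactory receptor probe sets at 3.10; in 10 genes the orange points all lie above the blue ones, and PCDHB1 is below the line in both groups.

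PCDHB14 read 4.77, 4.93, 4.87, 5.10 and 4.89 log2 units on control arrays 1 to 5 and 6.14, 6.13, 6.24, 6.13 and 6.23 on doxycycline arrays 1 to 5. All doxycycline arrays lay more than 1 log2 unit above the highest control array. The difference was 1.26 ± 0.08 (limma's moderated SE, n = 5 per group; adjusted p = 1.11e-08), and PCDHB14 was the only PCDHB gene called with a log2 fold change of at least 1, a rule that 2.43% of all probe sets met in the upward direction.

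PCDHB8 was at 5.81, 5.86, 6.06, 6.16 and 5.83 in control cells and at 6.68, 6.98, 6.92, 6.95 and 7.15 with doxycycline. The groups did not overlap, and the gap between the highest control and the lowest doxycycline array was wider than the range of the control arrays. Its log2 fold change was 0.99 ± 0.10 (adjusted p = 1.78e-06).

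The signal of PCDHB13 was 5.54, 5.12, 5.46, 5.20 and 5.65 on control arrays and 6.46, 6.26, 6.44, 6.12 and 6.61 on doxycycline arrays. Both groups spread over about the same range, without overlap. PCDHB13 rose by 0.98 ± 0.12 log2 units (adjusted p = 9.34e-06).

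PCDHB11 gave 5.59, 5.30, 5.43, 5.14 and 5.50 in control and 6.50, 6.21, 6.41, 6.31 and 6.37 in doxycycline cells, a rise of 0.97 ± 0.10. For PCDHB10 the control arrays read 3.80, 4.05, 3.92, 3.85 and 3.89 and the doxycycline arrays 4.78, 4.51, 4.92, 5.02 and 4.86, a rise of 0.92 ± 0.10. For PCDHB5 they read 5.31, 5.29, 5.37, 5.56 and 5.52 against 6.53, 6.09, 6.22, 6.40 and 6.30, a rise of 0.90 ± 0.10. None of these 3 genes had a doxycycline array within the control range. The 95% intervals of PCDHB8, PCDHB13, PCDHB11, PCDHB10 and PCDHB5 all overlap, from 0.69 at the lowest bound to 1.24 at the highest, so no order is drawn among them.

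Below these came PCDHB16 (log2 fold change 0.80 ± 0.09), PCDHB9 (0.79 ± 0.08), PCDHB15 (0.62 ± 0.13), PCDHB4 (0.56 ± 0.13), PCDHB12 (0.50 ± 0.08) and PCDHB7 (0.40 ± 0.09), all called. PCDHB16, PCDHB9, PCDHB12 and PCDHB7 had no overlap between groups. In PCDHB15 and PCDHB4 it was doxycycline array 1, at 5.16 and 3.78, that fell within the control range, while the other 4 arrays were above it. PCDHB3 (0.33 ± 0.12, adjusted p = 0.0430) and PCDHB2 (0.29 ± 0.10, adjusted p = 0.0296) were the weakest calls. The call of PCDHB3 was lost without control array 1, 3 or 4, without doxycycline array 1, 3, 4 or 5, with a trended robust variance and with a replicate block (adjusted p = 0.0575 to 0.108). That of PCDHB2 was lost without control array 1, 2 or 3, without doxycycline array 1 or 3 and with the block (adjusted p = 0.0524 to 0.0833).

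PCDHB6 was the exception among the PCDHB probe sets with signal above the floor. It read 6.28, 6.54, 6.67, 6.82 and 6.19 in control and 6.51, 6.31, 6.31, 6.41 and 6.28 in doxycycline cells, a difference of -0.14 ± 0.12 with a 95% interval from -0.38 to 0.11 (adjusted p = 0.401). This interval lies below those of its neighbours PCDHB5 (0.69 to 1.11) and PCDHB7 (0.21 to 0.58). PCDHB1 stayed below the floor on all arrays, with means of 1.88 ± 0.12 and 1.97 ± 0.12 (SD, n = 5), and its difference of 0.10 ± 0.09 did not pass (adjusted p = 0.445). At so low a signal a change would be compressed, so a rise of PCDHB1 RNA like that of the other genes might not be detectable on this array.

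Along the chromosome the PCDHB fold changes were low at the alpha-cluster end and higher further in. In gene order they were 0.10 for PCDHB1, 0.29 for PCDHB2, 0.33 for PCDHB3 and 0.56 for PCDHB4, after which all but PCDHB6, PCDHB7 and PCDHB12 lay above that last value. Across the 16 genes the rank correlation of order with fold change was 0.64 (Spearman's rho), a description only, since neighbouring genes share sequence and may share hybridisation.

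The genes around the clusters were taken from RefSeq's gene order, from SRA1 before the alpha cluster to NDFIP1 beyond PCDH12. Of 24 written down 21 were measured, of which 3 rose and 4 fell (14.3% and 19.0%, against 20.9% and 17.2% of all probe sets), with a median log2 fold change of 0.05. The genes of this list nearest to the PCDHB genes on either side did not pass. On one side this was ZMAT2 (-0.19 ± 0.08), a splicing factor, with the alpha cluster, not measured here, lying between it and PCDHB1. On the other side it was SLC25A2 (0.15 ± 0.10), a mitochondrial ornithine carrier, whose means of 1.82 and 1.97 were under the floor, so that as for PCDHB1 a rise might not be detectable. Next to it TAF7 (0.13 ± 0.08), a subunit of the general transcription factor TFIID, was above the floor and did not pass. DIAPH1 (0.05 ± 0.08), an actin-nucleating formin beyond the gamma cluster, did not pass either. Further out, RELL2 (0.70 ± 0.13), FCHSD1 (0.59 ± 0.14) and CD14 (0.51 ± 0.09) rose, and GNPDA1, a glucosamine-phosphate deaminase (-2.52 ± 0.10), the histidyl-tRNA synthetase gene HARS1 (-0.60 ± 0.08), ARAP3 (-0.46 ± 0.11) and SLC35A4 (-0.43 ± 0.08) fell.

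**Figure D2:**
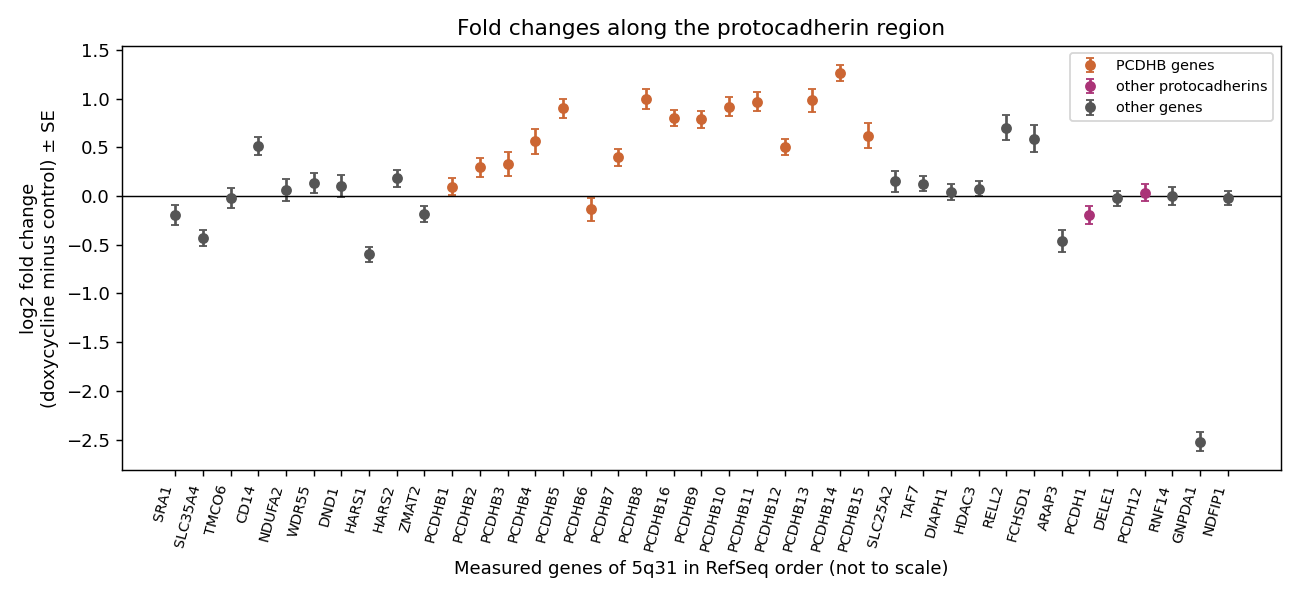
Log2 fold change (doxycycline minus control, vertical axis) ± SE for measured genes around the protocadherin clusters of chromosome 5 in RefSeq order, evenly spaced and not to scale, with 5 arrays per group. The PCDHB genes (orange) lie between 0.29 and 1.26 except PCDHB1 (0.10) and PCDHB6 (-0.14), while the nearest measured genes drawn on either side with signal above the floor, ZMAT2 at -0.19 and TAF7 at 0.13, did not pass; SLC25A2, at 0.15, is under the floor.

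Among the 13 non-clustered genes 8 were called higher and none lower, with a median log2 fold change of 0.38, where 20.9% of all probe sets rose and 17.2% fell. These 8 include PCDH11X and PCDH11Y, whose means were under the floor in both groups. In 6 of the 13 every doxycycline array lay above every control array, against 14.9% of all probe sets. The risers with signal above the floor in both groups were PCDH7, PCDH9, PCDH10, PCDH17, PCDH18 and PCDH20. Whether the PCDHB and the non-clustered genes differ in their change was not tested.

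Of the delta-1 class, whose members carry conserved motifs in their tails, 4 of 5 were called higher, against 20.9% of all probe sets. Of these 4, PCDH11X and PCDH11Y had means under the floor in both groups. PCDH7, an adhesion protein of neurons and of epithelia that binds the SET protein, had the highest fold change of the family. Its signal was 3.27, 3.21, 3.28, 3.02 and 3.20 in control cells, near the floor, and 4.30, 5.08, 4.96, 5.22 and 5.07 with doxycycline. Array 1 stood below the other doxycycline arrays and was still 1 log2 unit above the controls, and the difference was 1.73 ± 0.14 (adjusted p = 1.59e-07), a 3.32-fold rise that is a low estimate if the control signal is background. PCDH9, another neural member, read 4.83, 4.18, 4.58, 5.02 and 4.79 against 5.61, 5.77, 5.81, 5.28 and 5.87. The control arrays of PCDH9 spread over 0.84 log2 units without reaching the doxycycline arrays, and it rose by 0.99 ± 0.15 (adjusted p = 8.02e-05).

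PCDH11X read 1.99, 2.14, 2.23, 2.10 and 1.94 in control and 2.31, 2.91, 2.67, 3.21 and 2.78 in doxycycline cells. It was called (0.69 ± 0.13), with no overlap, but a single array exceeded the floor of 3.10. PCDH11Y, a near-identical copy on the Y chromosome, was called with a log2 fold change of 0.35 ± 0.12. Both of its means were under the floor, and the probe sets of these copies may share hybridisation. Whether this line carries a Y chromosome was not examined, so the call is not read as a rise of PCDH11Y RNA. The call of PCDH11Y was lost without control array 2, 3 or 5 and without doxycycline array 1 or 4 (adjusted p = 0.0588 to 0.0777). PCDH1, an adhesion protein of airway epithelium, was the delta-1 member that did not pass (-0.19 ± 0.09, adjusted p = 0.123). It was measured well above the floor, at 7.03 ± 0.10 and 6.84 ± 0.17 (SD, n = 5), and its 95% interval, -0.39 to 0.01, lies below those of the 4 other delta-1 genes. Without doxycycline array 1 it passed as lower (-0.26, adjusted p = 0.0277).

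Of the delta-2 class, whose tails can recruit the WAVE regulator of actin, 3 of 5 rose, against 20.9% of all probe sets. PCDH10, known as a gene silenced by methylation in several cancers, was at 5.75, 5.96, 5.75, 5.96 and 5.69 in control and at 6.99, 6.76, 6.87, 7.01 and 6.92 in doxycycline cells. Both groups were tight and lay 0.80 log2 units apart at their nearest arrays, and the rise was 1.09 ± 0.09 (adjusted p = 1.12e-07). PCDH18 read 5.10, 4.98, 4.92, 4.82 and 5.20 against 6.22, 5.93, 6.26, 5.78 and 6.17, again with no overlap, a rise of 1.07 ± 0.11 (adjusted p = 1.50e-06). PCDH7, PCDH10 and PCDH18, all on chromosome 4, were the 3 non-clustered genes called with a log2 fold change of at least 1.

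PCDH17, which acts at synapses, rose less, from 6.04, 6.18, 6.36, 6.29 and 6.24 to 6.53, 6.78, 6.56, 7.0 and 6.62, a difference of 0.48 ± 0.10 (adjusted p = 0.00149). All doxycycline arrays were above the highest control array, by 0.18 at the nearest. PCDH19, mutated in an inherited epilepsy (0.10 ± 0.15), and PCDH8, known from synapses (-0.09 ± 0.08), did not pass and had means under the floor in both groups.

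The remaining 3 non-clustered genes belong to neither delta class here. PCDH20 rose from 3.82 ± 0.18 to 4.20 ± 0.25 (SD, n = 5), by 0.38 ± 0.12 at an adjusted p of 0.0245, with 4 of 5 doxycycline arrays above all controls, and this call was lost without control array 3 or 5 and without doxycycline array 2, 3 or 5 (adjusted p = 0.0511 to 0.0706). PCDH12, a protocadherin of endothelium (0.03 ± 0.09), and PCDH15, which forms the tip link of inner-ear hair cells together with CDH23 (0.23 ± 0.11), did not pass, and their means were under the floor in both groups. PCDH15 passed without control array 2 (0.30, adjusted p = 0.0363).

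**Figure D3:**
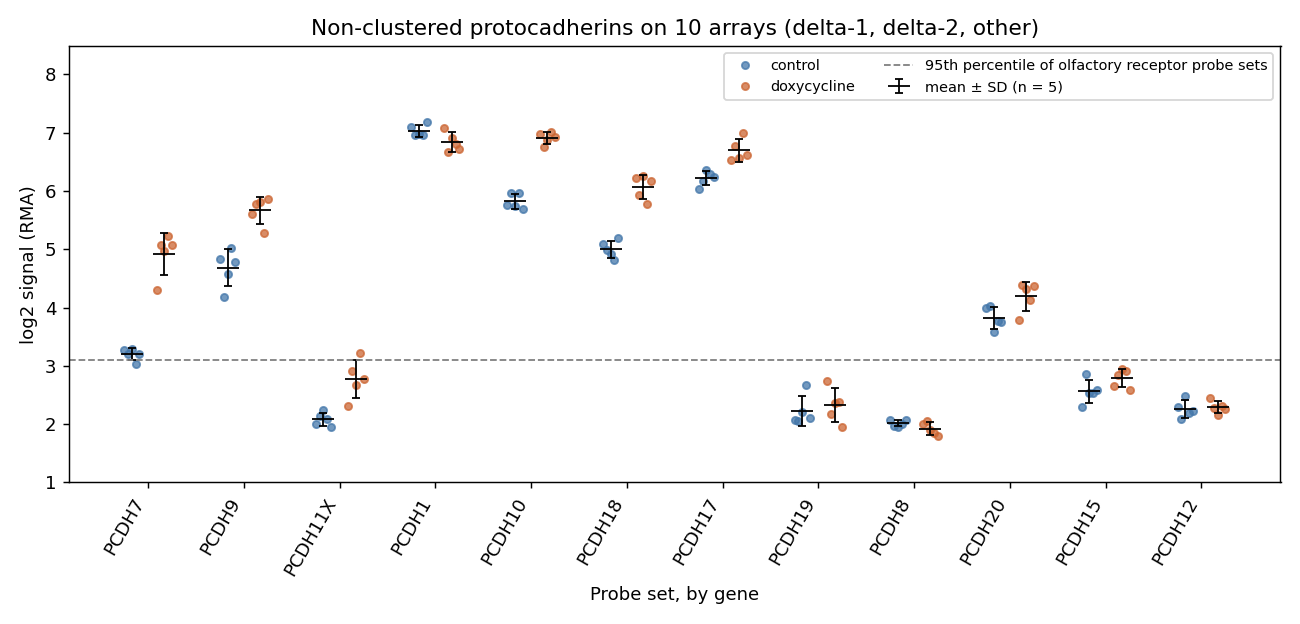
Log2 signal (RMA, vertical axis) of 12 of the 13 non-clustered protocadherin probe sets on 5 control (blue) and 5 doxycycline (orange) arrays, with PCDH11Y not drawn. Points are arrays, black bars the mean ± SD, the dashed line is at 3.10 (95th percentile of olfactory receptor probe sets), and PCDH7, PCDH9, PCDH10, PCDH18 and PCDH17 show orange points above every blue point and above the line.

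The floor bears on which members can be said to be measured. In both groups 22 of the 29 means were above it, and the other 7 (PCDHB1, PCDH8, PCDH11X, PCDH11Y, PCDH12, PCDH15 and PCDH19) were under it. Probes differ in brightness, so this is a guide and not a limit of detection.

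Other atypical cadherins were described for comparison, from a list written from general knowledge. Of 17 measured 8 rose and none fell, against 20.9% and 17.2% of all probe sets, with a median log2 fold change of 0.26. In 8 of the 17 both means were under the floor. DCHS1 (1.29 ± 0.13) and FAT4 (1.25 ± 0.10), which bind each other as ligand and receptor in planar polarity, had the largest rises. They were followed by CELSR2, a seven-pass cadherin (1.13 ± 0.14), and the giant cadherin FAT1 (0.86 ± 0.11). CDH23, the partner of PCDH15, was under the floor and did not pass (-0.04 ± 0.11).

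Genes listed for context as regulators of protocadherin promoter choice or of chromatin moved both ways. Of 25 measured 6 rose and 3 fell, shares of 24% and 12%, against 20.9% and 17.2% of all probe sets. All 25 were above the floor, and of all probe sets above it 26.7% rose and 22.9% fell. CTCF, which binds these promoters and their enhancers and loops them together, did not pass (7.91 ± 0.09 and 7.90 ± 0.16 log2 units, SD, n = 5; difference -0.0031 ± 0.0906). Of the cohesin ring SMC1A fell (-0.45 ± 0.08), SMC3 did not pass (-0.02 ± 0.10), and the subunit STAG2 (0.29 ± 0.09) and the loader NIPBL (0.52 ± 0.14) rose. The maintenance methyltransferase DNMT1 fell (-0.77 ± 0.07), as did TRIM28, a corepressor that recruits SETDB1 (-0.37 ± 0.09). The de novo methyltransferase DNMT3A (0.55 ± 0.12) and TET2, which oxidises methylcytosine (0.53 ± 0.09), rose. REST (0.42 ± 0.10) and WIZ (0.29 ± 0.11) rose as well. SMCHD1, a known repressor of the clusters, did not pass (-0.31 ± 0.12, adjusted p = 0.0547), nor did SETDB1 (0.19 ± 0.08). DNA methylation was not measured, and whether any of these changes bears on the protocadherins was not tested.

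Protein partners and processing enzymes of protocadherins also moved both ways, with 6 of 24 higher, 2 lower and a median log2 fold change of 0.02. Their shares were 25% and 8.3%, where 20.9% of all probe sets rose and 17.2% fell. All 24 were above the floor, and of all probe sets above it 26.7% rose and 22.9% fell. The gamma-secretase subunits APH1B (0.91 ± 0.08) and NCSTN (0.36 ± 0.08), which belong to the protease that cuts protocadherin tails, and CYFIP2, a WAVE complex subunit (0.84 ± 0.08), rose, as did beta-catenin, CTNNB1 (0.41 ± 0.07). WASF3, one of the WAVE proteins themselves, fell (-1.35 ± 0.11), and the kinase PTK2B fell as well (-0.29 ± 0.10). ADAM10, the sheddase that cuts their ectodomains, did not pass (0.20 ± 0.08, adjusted p = 0.0621).

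**Figure D4:**
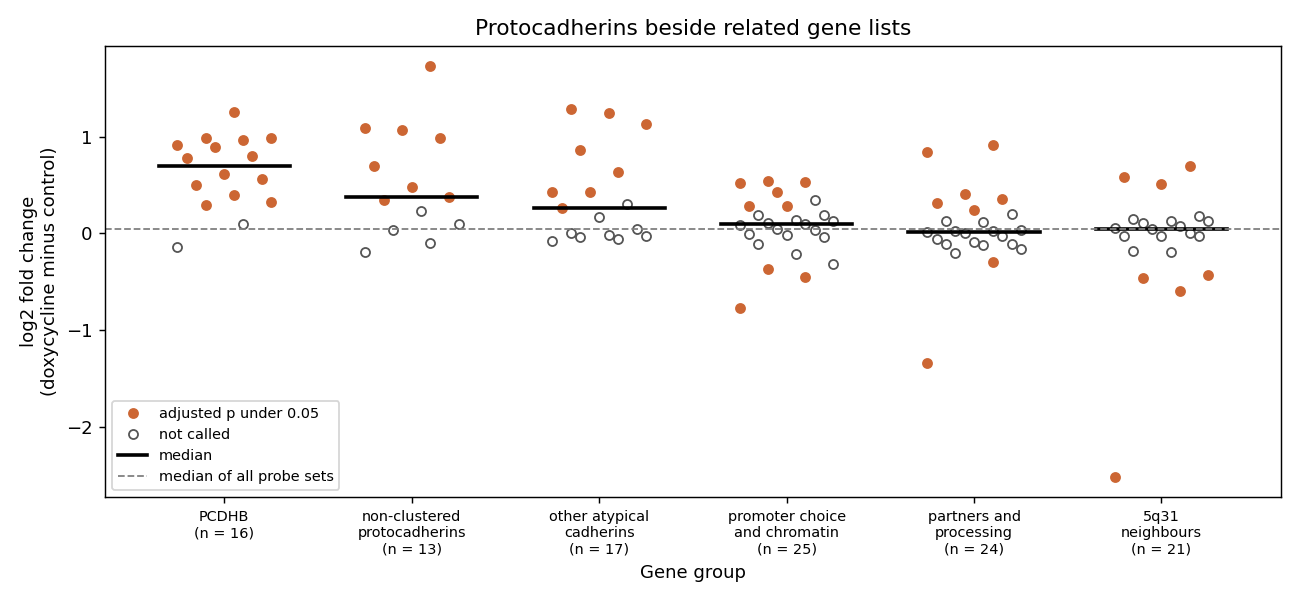
Log2 fold change (doxycycline minus control, vertical axis) of single genes in the PCDHB and non-clustered protocadherins and in 4 related lists, with filled points for an adjusted p under 0.05, black bars for medians and a dashed line for the median of all probe sets at 0.04. The medians are 0.70, 0.38, 0.26, 0.10, 0.02 and 0.05 from left to right, and none of the called protocadherins or atypical cadherins lies below 0.

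Protocadherins are expressed in other cell types as well, so markers of such cells were read beside these results. Of the 11 melanoma markers 4 rose and 2 fell (36.4% and 18.2%, against 20.9% and 17.2% of all probe sets). MITF, the regulator of the melanocyte lineage (1.21 ± 0.08), S100A1 (0.86 ± 0.09) and S100B (0.26 ± 0.08) rose, as did TYR, which was under the floor, whereas the neural crest receptor NGFR (-1.04 ± 0.11) and the receptor kinase AXL (-0.63 ± 0.08) fell. The summed linear signal of these markers was 1949 to 2238 on control and 1918 to 2142 on doxycycline arrays. None of the 5 keratinocyte markers was above the floor in either group. The 5 fibroblast markers were all above it, and 4 rose, against 26.7% of all probe sets above the floor. The rises were led by LUM (1.52 ± 0.10) and PDGFRB (1.16 ± 0.10). The summed linear signal of the 5 was 104 to 127 on control and 189 to 209 on doxycycline arrays. For 6 endothelial markers that sum went from 69.5 to 92.4 in control to 127 to 175 with doxycycline, through KDR (1.18 ± 0.12), while CDH5, PECAM1, TEK and CLDN5 were under the floor. For 5 leukocyte markers it went from 113 to 173 up to 291 to 429, mostly through LYZ (1.44 ± 0.14), with PTPRC and CD3E under the floor. For 5 neuronal markers it was lower with doxycycline, 207 to 247 against 298 to 348, since SYT1 fell (-0.77 ± 0.09) although SNAP25 rose (2.17 ± 0.16), with RBFOX3, SYN1 and STMN2 under the floor. The part of such cells, or of the melanoma markers' changes, in the protocadherin differences was not tested.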

How the data were processed

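The authors deposited log2 expression values of 18569 probe sets on 10 arrays, made with RMA per the submitters' processing notes. Its version, library file and any filtering were not given in the sources used here. Quantile normalization makes a fold change relative to the other genes of an array, and dim probe sets understate changes. Symbols came from the platform annotation: 17511 probe sets had 1 symbol, 0 several and 1058 were unnamed. All 29 member symbols were current in RefSeq (GRCh38.p14).

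The contrast of doxycycline and control was fitted in limma 3.58.1 (lmFit, then eBayes; R 4.3.3) with no covariate, and the two-sided p-values were adjusted by Benjamini-Hochberg across the whole table. The fit was tested on simulated data. Errors are moderated standard errors, or SDs where stated, and the number of arrays limits precision. A gene with several probe sets was read from the brightest on average. The members and lists were chosen with earlier results of these data known. Values on every array were given for up to 6 called members per subfamily by size of change, and lists by up to 4 called genes; other genes named were chosen after their values were seen. Alternatives were filters on dim probe sets, median centring, renewed quantile normalization, a trended robust variance, array weights, a replicate block, a fold threshold and leaving out each array.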

Additional observations from a re-analysis of the deposited data

Results flagged for a closer look

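Within-group spread was checked for the 29 members in both groups, 58 groups of 5 arrays, and in 4 of them 1 array stood far from the others; chance alone gives about 1 such group in 20. PCDH7 read 4.30 on doxycycline array 1 and 4.96 to 5.22 on the other doxycycline arrays. PCDHB4 read 3.78 on the same array and 4.36 to 4.54 on the others. PCDHB1 was at 2.10 on control array 5 and at 1.81 to 1.84 on the other controls, all below the floor of 3.10. PCDH19 was at 2.68 on control array 4 and at 2.05 to 2.20 on the others, also below the floor. Over all 29 members doxycycline array 1 was the lowest of its group in 8 and the highest in 7, so it was not low throughout.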

How the results depend on the processing

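Of the 22 called members 18 stayed called at an adjusted p under 0.05 under every alternative that tested them, other than the fold threshold, which only 4 of the 29 members met. PCDHB3 lost its call in 9 settings, PCDHB2 in 6, and PCDH11Y and PCDH20 in 5 each, mostly on leaving out 1 array, and PCDH1 (lower, adjusted p = 0.0277, without doxycycline array 1) and PCDH15 (higher, adjusted p = 0.0363, without control array 2) gained one. No called member changed sign. Leaving out 1 array in turn gave 18 to 21 called protocadherins, 12 to 14 of them PCDHB and 6 to 8 non-clustered, and 6378 to 7237 called probe sets in all. With a log2 fold change of at least 1 the counts were 4 protocadherins, 1 PCDHB and 3 non-clustered genes, and 1202 probe sets in all. Among probe sets above the median signal 4 of the 5 non-clustered genes left were called, a fall set by the fewer genes tested. With a replicate block 20 protocadherins were called, 12 of them PCDHB, and 6476 probe sets in all, against 7078. Arrays of the same number did not deviate together (correlations -0.44 to -0.01), and no control array correlated best with its own number. Counts for the alpha and gamma clusters were not run, since no probe set was named for them. Signal over background limits what can be said of the 7 members under the floor.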
